A study of Mus musculus with 2 samples.

Results

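The clustered histone genes of the mouse were examined in messenger RNA libraries of embryonic stem cells. Members were all genes of the count table whose symbol starts with Hist1h, Hist2h, Hist3h or Hist4h, and the rule found 59 of 22556 genes. By symbol these were 6 H1, 14 H2A, 17 H2B, 10 H3 and 12 H4 genes, the H2B genes including the pseudogene Hist3h2bb-ps. In mm10 coordinates, 49 lay in the Hist1 cluster on chromosome 13, 6 in the Hist2 cluster on chromosome 3, 3 in the Hist3 cluster on chromosome 11, and Hist4h4 lay alone on chromosome 6. Both libraries came from the female XX line iXist-ChrX-Dom, derived from 1 clone (A11B2) of a Dom/129S x Cast hybrid, in which the Xist promoter of the Dom/129S allele had been exchanged for a TetOn promoter. The cells were untreated (0 h), so the series holds 1 group of 2 replicates and no comparison between conditions. They had been kept with LIF on inactivated fibroblast feeders, which were taken off by pre-plating. Nothing states that the replicates came from separate cultures, so the p-values below compare these 2 libraries only.

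Clustered histone genes supply the core histones H2A, H2B, H3 and H4 and the linker histone H1 that package newly made DNA, and they are transcribed mainly in S phase. Most have no introns. Their mRNAs normally end not in a poly(A) tail but in a short stem-loop, which is bound by the stem-loop-binding protein SLBP. This end is formed by a cut just downstream of the stem-loop that needs the U7 small nuclear ribonucleoprotein. Some of these genes can also be processed at a downstream poly(A) signal, and replacement histone genes outside the clusters make ordinary polyadenylated mRNA through the cell cycle. The RNA here was isolated on oligo(dT) beads, and the libraries therefore measure the part of histone mRNA that such beads retain. Whether a gene gave few counts because its RNA lacks a tail or because little of it was made cannot be told apart.

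The stem-loop is the feature that sets the 3′ ends of these mRNAs apart, and was searched for in the GENCODE M21 transcripts (GRCm38, the assembly of mm10) as a 6-base stem opening with GG, a 4-base loop and the exact complement of the stem. It was found in at least 1 transcript of 39 of the 59 genes. Of 101652 transcripts of protein-coding genes, those of the clustered histone genes included, 0.132% held it, which is a share of transcripts and not of genes. The other 20 had no match, and for 18 of these the GENCODE model ends before the counted span does. The examples below are shown because they cover the most counted H1, H2A, H3 and H4 genes, an H2B gene that differed between the replicates, and further forms found in H4 genes. Each is given 5′ to 3′ on the strand of the gene with 5 bases on either side, and capitals mark stem and loop.
Hist1h1e, chr13:23621782-23621797 on the minus strand: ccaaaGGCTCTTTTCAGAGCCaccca
Hist1h2ae, chr13:23570668-23570683 on the minus strand: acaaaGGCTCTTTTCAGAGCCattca
Hist1h2bb, chr13:23747203-23747218 on the plus strand: ccaaaGGCTCTTTTAAGAGCCaccca
Hist1h3e, chr13:23561903-23561918 on the minus strand: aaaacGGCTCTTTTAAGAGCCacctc
Hist1h4d, chr13:23581950-23581965 on the plus strand: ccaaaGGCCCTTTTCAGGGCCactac
Hist1h4i, chr13:22040966-22040981 on the minus strand: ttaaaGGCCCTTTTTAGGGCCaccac
Hist1h4a, chr13:23760800-23760815 on the minus strand: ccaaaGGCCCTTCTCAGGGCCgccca
The coordinates cover the capitals. The form in Hist1h1e was shared by 20 genes (3 H1, 6 H2A, 8 H2B and 3 H3), and that in Hist1h2bb and Hist1h3e by 6 (1 H1, 2 H2B and 3 H3). All 11 H4 genes with a match had a stem of their own, which opens with GGCC or GGTC and was found in no other class. The form in Hist1h4d was held by 6 of them and that in Hist1h4i by 2.

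In 36 of the 39 genes the counted span stopped 4 to 8 bp past the stem-loop, about where the mature mRNA ends. The exceptions were Hist1h2bp and Hist1h2be, whose counted spans ran on beyond it, and Hist1h4j, whose span ended before the stem-loop, 45 bp short of its last base. In the deposited annotation 4 genes had spans over 1000 bp, and all were H2B genes: Hist1h2bc (8283 bp), Hist1h2bp (1727 bp), Hist1h2be (37456 bp) and Hist2h2be (2619 bp). The other 55 spanned 313 to 904 bp. GENCODE transcripts of 3 of the long genes end in a poly(A) signal, shown here as the last 30 bases with the signal in capitals. The fourth, Hist1h2bc, has neither a signal at a GENCODE end nor a stem-loop match.
Hist1h2bp, chr13:21789184-21789213 on the plus strand: ttataaaAATAAAggtttcaatctatccca
Hist1h2be, chr13:23583670-23583699 on the minus strand: tgtgttccttATTAAAgcattcctgattga
Hist2h2be, chr3:96223709-96223738 on the plus strand: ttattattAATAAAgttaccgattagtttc
The Hist1h2bp and Hist1h2be transcripts of these ends have 2 exons, and that of Hist2h2be has 1. Counting AATAAA or ATTAAA within the last 40 bases of any GENCODE transcript, 14 of the 59 genes had such an end. They held 21.4% and 33.5% of the clustered histone counts in replicates 1 and 2. Of all transcripts of protein-coding genes 37.6% had one, again a share of transcripts and not of genes. For 21 genes GENCODE models ran more than 100 bp past the counted span, by up to 4879 bp (Hist1h1d). Fragments from such extensions were not counted for these genes.

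The 59 genes took very little of either library. Of 23716499 fragments assigned to genes in replicate 1, 1147 lay in clustered histone genes, which is 0.00484% (95% Wilson interval 0.00456 to 0.00512%). In replicate 2 they were 683 of 20275749, or 0.00337% (0.00313 to 0.00363%). As CPM, counts scaled to the library total, the sums were 48.4 and 33.7, and averaged 41.0 ± 10.4 (SD, n = 2). Replicate 1 lay above the interval of replicate 2, and its sum was 1.44 times as high. As a log2 ratio of replicate 2 over replicate 1 this was −0.52, and −0.27 and −0.21 with the TMM and DESeq2 factors used below. Without Hist1h1e, 940 and 667 counts remained. In the gene by gene test below, 60.8% of all genes tested differed between the libraries. All intervals, floors and binomial p-values given here allow for counting error alone, since reads that carry no molecular identifier may be copies of 1 molecule.

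At least 10 counts in each replicate were reached by 11 of the 59 genes (18.6%), against 56.2% of all 22556 genes. A further 19 genes had 10 or more counts over both replicates together, 25 had 1 to 9, and 4 had none (Hist1h4j, Hist1h4m, Hist1h2aa and Hist2h4). With these totals a count of 0 allows 3 counts, which is 0.126 CPM in the first library and 0.148 CPM in the second. The median count per gene was 5 in replicate 1 and 3 in replicate 2. At 0 in replicate 2 only were 9 genes, with 1 to 7 counts in replicate 1, and none was at 0 in replicate 1 only. The same count was not made over all genes. Replicate 2 was the smaller library, and by the test described below 45.7% of all genes tested were lower in it and 15.1% higher. Most of the clustered histone genes were thus too sparse here for their levels to be ranked against each other.

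**Figure D1:**
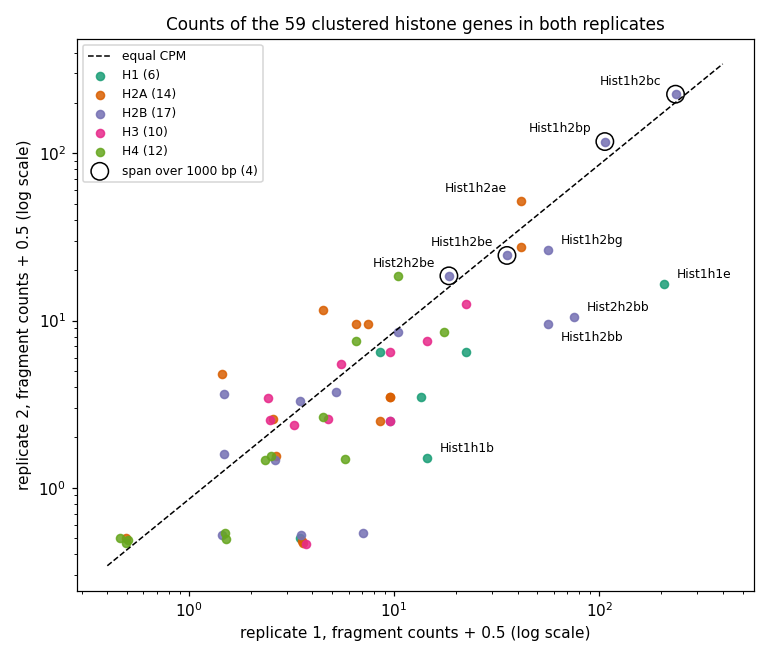
Fragment counts of the 59 clustered histone genes in replicate 1 (x axis) and replicate 2 (y axis), both with 0.5 added and on log scales, coloured by class; points of genes with under 10 counts in all are shifted by up to 8% for visibility. The dashed line marks equal CPM, and rings mark the 4 H2B genes with spans over 1000 bp, which lie near the line, while Hist1h1e, Hist2h2bb, Hist1h2bb and Hist1h1b lie well below it.

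Among the core histone genes, those of H2B gave more counts than all other classes together. Their 17 genes held 623 and 450 counts in the replicates, or 54.3% (51.4 to 57.2%) and 65.9% (62.3 to 69.3%) of all clustered histone counts. Per kb of span the mean share of H2B was 37.0% in place of 60.1%, no longer a majority, and that of H2A 26.1% in place of 14.9%. Hist1h2bc led with 235 and 225 counts, on average 10.5 ± 0.840 CPM (SD, n = 2), and Hist1h2bp followed with 106 and 117 counts (5.12 ± 0.920 CPM). No other member had 100 or more counts in both libraries. The other long H2B genes were far lower, Hist1h2be with 35 and 24 counts and Hist2h2be with 18 and 18. None of these 4 passed the test between replicates described below, with totals as the expectation.

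The remaining H2B genes with the highest means were Hist2h2bb, with 75 and 10 counts, and Hist1h2bg, with 56 and 26. Hist1h2bb gave 56 and 9. All of these were lower in replicate 2, while the 4 long H2B genes together were not, with 394 and 384 counts (16.6 and 18.9 CPM). The long genes therefore made up 34.4% of clustered histone counts in replicate 1 (31.7 to 37.1%) and 56.2% in replicate 2 (52.5 to 59.9%). The 55 shorter genes gave 753 and 299 counts, or 31.8 and 14.7 CPM, a log2 ratio of replicate 2 over replicate 1 of −1.11, and of −0.72 without Hist1h1e. For the long genes this ratio was 0.19. The median ratio per gene was −0.31 over all genes tested below. The long genes also had a lower GC content, 45.2 to 52.4%, against a median of 60.9% for the clustered histone genes. In GC bins of the other genes, the median ratio was −0.06 at 45%, −0.56 at 53%, −0.73 at 57% and −0.67 at 63%. Whether the contrast of long and shorter genes goes beyond base composition was not tested.

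Because a longer span collects more fragments, the order of the genes depends on the length used. Per exonic base (TPM, counts per kb scaled to the same sum in each library, with GENCODE exons inside the counted span), Hist1h2bc stayed highest at 61.2 ± 7.29 TPM (SD, n = 2), followed by Hist1h2bp at 32.0 ± 6.98. That scale divides counts taken over the whole span, introns included, by the exons alone. With the deposited span as the length, Hist1h2bc was at 21.6 TPM, below Hist1h1e (98.2), Hist1h2bg (65.3), Hist1h2ae (65.1), Hist2h2bb (60.1), Hist1h2ac (52.8) and Hist1h2bp (50.7). Hist1h2be and Hist2h2be were at the level of the sparse genes on the exonic scale, at 1.26 ± 0.147 and 1.33 ± 0.200 TPM. Hist2h2bb (19.9 ± 20.2) and Hist1h2bg (16.5 ± 6.30) came next among the H2B genes on that scale and did not differ from each other beyond the spread of the replicates.

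H2A genes gave 136 counts in replicate 1 and 122 in replicate 2, or 11.9% (10.1 to 13.9%) and 17.9% (15.2 to 20.9%) of the counts of all members. Hist1h2ae was highest with 41 and 51 counts (2.12 ± 0.556 CPM), and Hist1h2ac had 41 and 27 (1.53 ± 0.281 CPM). Both lie next to a well counted H2B gene. Hist1h2ak had 7 and 9 counts and Hist1h2ad 4 and 11, and at such counts the order of the lower H2A genes cannot be read.

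H3 and H4 genes, which together form the tetramer at the centre of the nucleosome, were the least counted classes by mean CPM, although in replicate 2 the H1 genes had fewer counts than either. The 10 H3 genes had 73 and 41 counts and the 12 H4 genes 48 and 38, or 6.18 ± 0.256% and 4.87 ± 0.975% (SD, n = 2) of the counts of the clusters. Per kb of span the share of H3 was 11.1%, and that of H4 was nearly equal to it. Within H3, Hist1h3e had 22 and 12 counts, Hist1h3d 14 and 7, Hist1h3g 9 and 6, and Hist1h3a 9 and 2, and the order of the last of these is within counting error. Within H4, Hist1h4d had 10 and 18, Hist1h4i 17 and 8, Hist1h4a 6 and 7, and Hist1h4f 4 and 2. No H3 or H4 gene passed the test between replicates with the ratio of totals. Of the 4 genes with no count in either library, 3 encode H4.

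H1 genes, which encode the linker histones that bind DNA between nucleosomes, differed most between the replicates. They held 267 counts in replicate 1 and 32 in replicate 2, or 23.3% (20.9 to 25.8%) against 4.69% (3.34 to 6.54%) of clustered histone counts. Hist1h1e alone gave 207 and 16 counts. It made up 77.5% of the H1 counts in replicate 1 and 50.0% in replicate 2, and without it the class still gave 60 and 16 counts, a log2 ratio of −1.68. Hist1h1a had 22 and 6 counts, Hist1h1c 13 and 3, and Hist1h1b 14 and 1. The somatic H1 gene Hist1h1d, with 8 and 6, was nearly equal in both libraries. With the expected ratio taken from the GC trend described below, Hist1h1e passed the test between replicates and no other H1 gene did. The H1 ratio of −2.83 stayed below 0 with other scalings (−2.58 with TMM and −2.52 with DESeq2 factors), as did that of H3 (−0.61, −0.35 and −0.29). The ratios of H2B (−0.24, 0.01 and 0.07) and H4 (−0.11, 0.15 and 0.20) changed sign, and H2A was above 0 in each (0.07, 0.33 and 0.38).

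**Figure D2:**
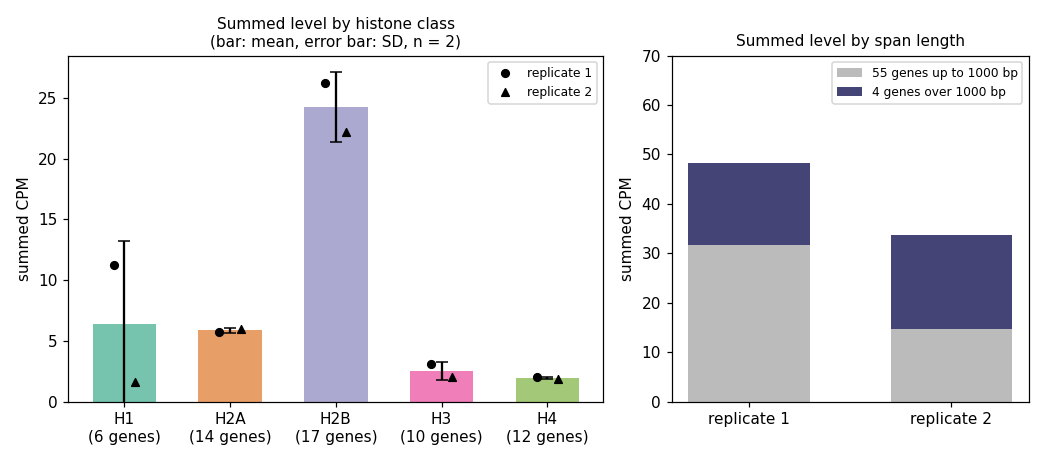
Left, summed CPM of each histone class, with bars for the mean, error bars for the SD (n = 2; the H1 bar is cut at 0) and symbols for the replicates. Right, summed CPM of the 4 genes with spans over 1000 bp and of the 55 shorter genes in each replicate; the upper parts, 16.6 and 18.9 CPM, are close, and the lower ones are 31.8 and 14.7 CPM.

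The members also include histone genes of the testis, which are active in developing sperm cells. Hist1h1t, the testis H1, had 3 and 0 counts, Hist1h2ba (testis H2B) 2 and 1, and Hist1h2aa (testis H2A) none. Summed, they reached 0.211 CPM in replicate 1 and 0.0493 CPM in replicate 2.

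The difference between the replicates was tested gene by gene by setting its 2 counts against the library totals in an exact binomial test (two-sided), adjusted by Benjamini-Hochberg over the 14536 genes with 10 or more counts. Of the 30 clustered histone genes tested, 6 (20%) passed at 0.05 and all 6 were lower in replicate 2. Over all genes tested 60.8% passed, 45.7% lower and 15.1% higher in replicate 2. The clustered histone genes had a median total of 19.5 counts in this test against 486 for all genes, and at such counts only large differences can pass. The 6 genes lower in replicate 2 were Hist1h1e (log2 ratio −3.43, adjusted p = 2.26e-36), Hist2h2bb (−2.62, 8.11e-11), Hist1h2bb (−2.35, 1.95e-07), Hist1h1b (−3.05, 0.00307), Hist1h2bg (−0.87, 0.0188) and Hist1h1a (−1.57, 0.0219). They encode 3 of the 6 linker histones and H2B, and all have spans below 1000 bp, as do 26 of the 30 genes tested.

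The result of this test depended on the scaling. With TMM factors, which raise every ratio by 0.26, 9 clustered histone genes passed, 4 lower and 5 higher in replicate 2, while of all genes 57.7% passed, 28.9% lower and 28.8% higher. With DESeq2 factors (a shift of 0.31) the split was again 4 lower and 5 higher, with 57.8% of all genes passing. With no count minimum 7 of 55 members passed, against 48.5% of all genes, and with 10 counts asked for in each library 3 of 11 did, against 65.2%. The genes that came out higher with TMM factors were Hist1h2bc (log2 ratio 0.16 on totals, adjusted p = 0.00448 with TMM factors by the exact binomial test), Hist1h2bp (0.37, 0.00302), Hist1h2ae (0.54, 0.0158), Hist1h4d (1.04, 0.0362) and Hist1h2ad (1.58, 0.0309). Hist1h1e, Hist2h2bb, Hist1h2bb and Hist1h1b stayed lower with these factors, whereas Hist1h2bg and Hist1h1a no longer passed. The median log2 ratio of the 30 genes was −0.49 (quartiles −1.56 and 0.23) against −0.31 (−0.85 and 0.07) for all genes tested, and 20 of the 30 were below 0. With TMM factors the medians were −0.24 and −0.05, and 18 of the 30 were below 0.

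The libraries also differed by base composition. Across the other genes tested, the log2 ratio decreased with the GC content of the transcript (Spearman's rho −0.64), but only up to about 57% GC. Above that the medians in bins of 2% were level, from −0.73 at 57% to −0.67 at 63%, the last bin, which held 30 genes. Clustered histone genes are GC-rich, with a median of 60.9% against 49.3% for all genes tested, and so lie mostly where the trend is level. Within the 30 tested, rho was 0.11. These correlations are across genes of the same libraries and are given as descriptions. When the expected ratio was taken from the GC trend, 8 genes passed (45.4% of all genes), 3 lower (Hist1h1e, Hist2h2bb and Hist1h2bb) and 5 higher (the same 5 as with TMM factors), against 21.7% lower and 23.7% higher of all genes. The median ratio of the clustered histone genes was then −0.08. Hist1h1b no longer passed (adjusted p = 0.0582, exact binomial test).

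**Figure D3:**
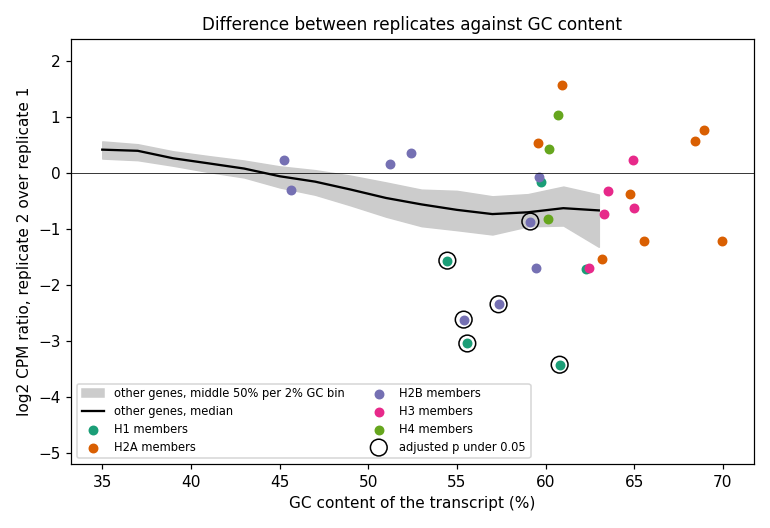
Log2 CPM ratio of replicate 2 over replicate 1 (y axis) against the GC content of the transcript in percent (x axis) for the 30 clustered histone genes with at least 10 counts, coloured by class, with rings around the 6 that passed the test. The line and grey band give the median and the middle 50% of the other genes in bins of 2% GC; the ratios of the clustered histone genes scatter from −3.43 to 1.58 on both sides of the band.

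The genes were also read along the chromosome, since those of 1 cluster are transcribed from shared nuclear bodies. On chromosome 13 the members fall into 4 runs separated by more than 100 kb. The run of 29 genes that includes Hist1h1e and Hist1h2bc held 833 and 475 counts, or 72.6% and 69.5% of the clustered histone counts, and 8 of the 11 genes detected in both libraries. The run of 13 genes at the start of the cluster had 160 and 152 counts, of which Hist1h2bp gave 106 and 117. The runs of 5 and 2 genes had 37 and 22, and 2 and 1. The 6 Hist2 genes on chromosome 3 gave 107 and 33 counts, most of them from Hist2h2bb and Hist2h2be. The 3 Hist3 genes had 7 and 0, and Hist4h4 had 1 and 0. The 3 highest members by mean CPM (Hist1h2bc, Hist1h2bp and Hist1h1e) lie in 2 of these runs and took 47.8% and 52.4% of the counts of all members.

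**Figure D4:**
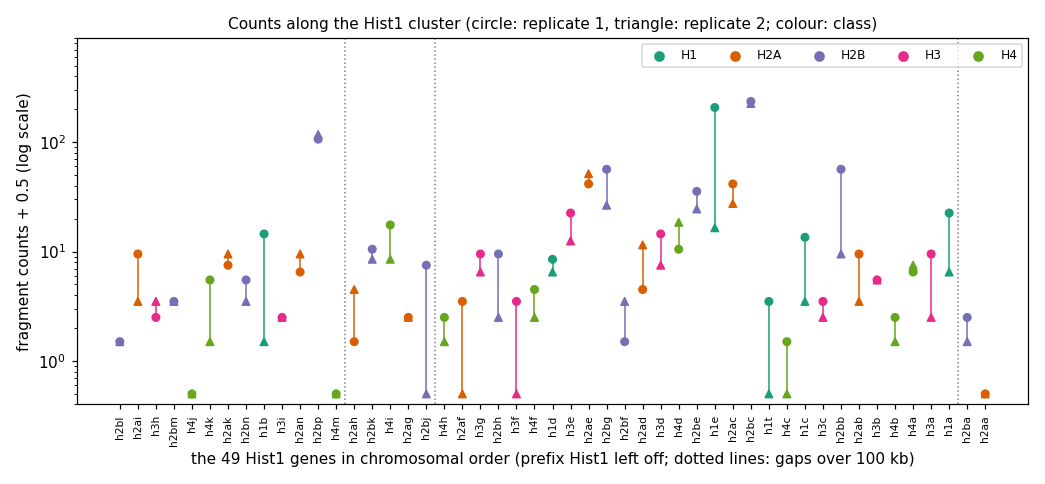
Fragment counts plus 0.5 (log scale) of the 49 Hist1 genes in chromosomal order, with circles for replicate 1, triangles for replicate 2 and colours for the class; dotted lines mark gaps of more than 100 kb. Hist1h2bp, Hist1h1e and Hist1h2bc had over 100 counts in at least 1 replicate, and no other Hist1 gene had more than 56.

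Many H2A and H2B genes lie head to head and share the DNA between their start sites. There were 11 such pairs, with 171 to 304 bp between the counted spans. The H2B gene had the higher mean CPM in 6 pairs and the H2A gene in 4, and both were equal in 1. In the pair Hist1h2ac and Hist1h2bc the counts were 41 and 27 against 235 and 225, and in the pair Hist1h2an and Hist1h2bp 6 and 9 against 106 and 117. In Hist1h2ae and Hist1h2bg they were 41 and 51 against 56 and 26, so that replicate 1 had more of the H2B gene and replicate 2 more of the H2A gene. Over the 11 pairs the mean CPM of the partners gave a Spearman's rho of 0.55, a description of pairs that share both libraries.

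The shared promoters of Hist1h2ae and Hist1h2bg and of Hist1h2ac and Hist1h2bc are printed because these are the pairs in which both genes were detected in both libraries. They are the plus strand of GRCm38.p6, from RefSeq promoter windows, and capitals mark 3 motifs on either strand. These are the TATA box, spelled TATAAA, the NF-Y motif, spelled CCAAT, and the octamer bound by Oct proteins, spelled ATTTGCAT.
Hist1h2ae to Hist1h2bg, chr13:23571221-23571398: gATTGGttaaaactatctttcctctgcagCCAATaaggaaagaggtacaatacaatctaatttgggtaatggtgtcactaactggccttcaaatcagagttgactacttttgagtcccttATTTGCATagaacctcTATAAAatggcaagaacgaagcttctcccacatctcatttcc
Hist1h2ac to Hist1h2bc, chr13:23683960-23684197: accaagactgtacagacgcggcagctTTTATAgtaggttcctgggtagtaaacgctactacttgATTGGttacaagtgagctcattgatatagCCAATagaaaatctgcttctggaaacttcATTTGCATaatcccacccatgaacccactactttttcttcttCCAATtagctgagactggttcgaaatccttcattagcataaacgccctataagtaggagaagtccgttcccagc
Of the 10 gaps whose sequence was at hand, 10 held CCAAT, 5 the octamer and 4 TATAAA.

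Over 54 RefSeq promoter windows of the clustered histone genes around the start site, TATAAA was found in 61.1%, against 13.6% of all 32851 windows. CCAAT was found in 85.2% against 37.4%. All H1, H2A, H2B and H3 windows held it, but 3 of the 11 H4 windows. The octamer was found in 25.9% against 1.74%, and lay in 7 of 14 H2A and 7 of 15 H2B windows and in none of the H1, H3 or H4 windows. Windows of paired genes overlap and are not independent, and a match of letters does not show that a factor binds.

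Histone genes resemble each other, and reads that fit several genes can be lost or split. The share of 50-base words of a gene's transcripts that also occur in a transcript of a gene elsewhere in the genome had a median of 52.9% over the 59 genes. At least 50% was shared in 33 genes, with 314 and 221 counts and a median of 10 over both replicates, and less in 26, with 833 and 462 counts and a median of 8. Most of the counts of the latter came from Hist1h2bc (47.9% shared), Hist1h2bp (46.0%) and Hist1h1e. Of the 6 genes called lower in replicate 2, Hist2h2bb, Hist1h1b and Hist1h1a shared none, Hist1h1e 21.1%, Hist1h2bb 41.7% and Hist1h2bg 68.0%. Sharing and mean CPM were hardly related over the 59 genes (Spearman's rho −0.07, a description). For its chromatin RNA libraries the study kept reads with a single alignment, while the rule used for the libraries here is not given in the sources used here, so the levels of genes with much shared sequence are uncertain.

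Replacement and other unclustered histone genes were measured in the same libraries, and most of them make ordinary polyadenylated mRNA. H3f3b and H3f3a, which encode H3.3, had 21319 and 22429, and 12598 and 13538 counts. Summed per exonic base, they reached 2891 and 3800 TPM against 25.9 and 18.7 TPM for the 10 clustered H3 genes. Clustered H3 genes thus supplied 0.688 ± 0.282% (SD, n = 2) of the H3 sum, or 1.18 ± 0.485% with span lengths and 0.164% by CPM.

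For H2A, the unclustered genes summed to 927 and 1054 TPM and the clustered ones to 49.8 and 53.6, a clustered share of 4.97 ± 0.186%. With span lengths it was 7.04%, and by CPM 1.35%. H2afz, which encodes H2A.Z, led with 6069 and 7302 counts and was higher in replicate 2 (log2 ratio 0.49, adjusted p = 5.65e-85, exact binomial test). H2afx, whose mRNA can end either in a stem-loop or in a poly(A) tail, had 1205 and 136 counts and was lower in replicate 2 by 2.92 on the log2 scale (adjusted p = 6.67e-178, exact binomial test). H2afj had 69 and 31 counts, while H2afv, H2afy and H2afy2 had between 395 and 1114. The clustered and the unclustered sums differed far more than the replicates did in both H2A and H3.

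Linker histones were the exception. H1f0, the replacement H1, had 618 and 445 counts and H1fx 0 and 1, together 52.3 and 46.8 TPM. The clustered H1 genes gave 59.9 and 8.96 TPM, which is 53.4% of the H1 sum in replicate 1 and 16.1% in replicate 2, so that on this scale which group was higher differed between the replicates. By CPM the replacement genes were higher in both, with 26.1 and 22.0 against 11.3 and 1.58 for the clustered genes. Cenpa, the centromeric H3, had 3378 and 1933 counts. Of the 10 unclustered histone genes with enough counts, 3 were higher and 7 lower in replicate 2, with a median log2 ratio of −0.27. With TMM factors 3 were higher and 3 lower. Of all genes 15.1% were called higher and 45.7% lower on totals, and 28.8% and 28.9% with TMM factors.

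**Figure D5:**
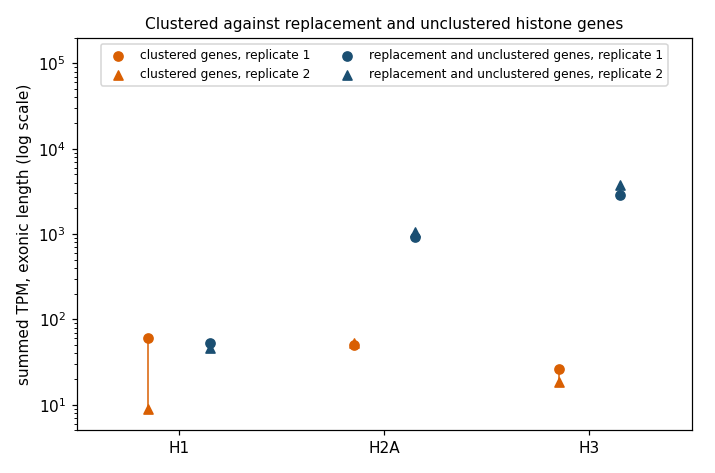
Summed TPM with exonic lengths (log scale) of the clustered genes and of the replacement and unclustered genes of classes H1, H2A and H3, with circles for replicate 1 and triangles for replicate 2. The clustered sums lie well below the others in H2A and H3, while in H1 they were 59.9 and 8.96 TPM on either side of 52.3 and 46.8 TPM.

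Genes that make and end histone mRNA were well measured. All 20 genes of a list for histone transcription and 3′ end processing had at least 10 counts in each replicate, with a median of 111 TPM per exonic base (4.35 to 249). Slbp had 4550 and 3629 counts, or 134 ± 1.32 TPM (SD, n = 2). The transcription cofactors Npat and Casp8ap2 (FLASH) reached 224 ± 37.0 and 249 ± 46.1 TPM. Of the U7 particle, Lsm11 had 403 and 296 counts and Lsm10 59 and 12, and the U7-linked zinc finger gene Zfp473 had 814 and 483. Between the replicates 5 of the 20 were called higher and 12 lower in replicate 2, with a median log2 ratio of −0.21, and with TMM factors 9 were higher and 9 lower (all genes: 15.1% higher and 45.7% lower on totals, 28.8% and 28.9% with TMM factors). The endonuclease gene Cpsf3 was lower (1647 and 710 counts, log2 ratio −0.99), and the exonuclease gene Eri1, with 7056 and 6126 counts, did not pass the test (adjusted p = 0.458, exact binomial test).

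The cell cycle genes that drive histone transcription were split, with Ccne2 higher in replicate 2 (2656 and 2940 counts, log2 ratio 0.37) and Ccne1 (1584 and 885, −0.61) and Cdk2 (2290 and 1033, −0.92) lower. With the GC trend as the expectation Cdk2 still passed (adjusted p = 7.93e-25, exact binomial test), and Ccne1 and Ccne2 did not (0.951 and 0.642). Histone chaperones, which carry histone proteins to DNA, were all detected, at 17.1 (Chaf1a) to 1791 TPM per exonic base. Hat1, the acetyltransferase of new H4, was highest with 27192 and 21151 counts (1791 ± 49.3 TPM) and Nasp 16995 and 14112. Of the 6 chaperone genes, Asf1a was called higher in replicate 2 and 5 were called lower, and with TMM factors 3 were higher and 3 lower. The shares among all genes were 15.1% higher and 45.7% lower on totals, and 28.8% and 28.9% with TMM factors.

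Other RNAs that are made without a poly(A) tail were also looked up, although their total level in these cells was not measured. Of a list of 8, 3 were in the table and the others were not analysed here. Rmrp had 24 and 7 counts, Rpph1 14 and 3, and Terc, the telomerase RNA, none. Rmrp and Rpph1 were both lower in replicate 2, with log2 ratios of −1.48 and −1.82 (adjusted p = 0.0190 and 0.0432, exact binomial test). On the same totals 45.7% of all genes tested were called lower. Their GC contents were 63.7% and 67.1%, and with the GC trend as the expectation neither passed (0.229 and 0.0952), nor did either with TMM factors. The GC content of Rpph1 lies beyond the last GC bin of the other genes.

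The labelled cell type was checked against its markers. All 12 stem cell markers were in the table, 11 had at least 10 counts in each replicate, and their median was 209 TPM per exonic base. Nanog had 13460 and 10151 counts, whereas Pou5f1 had 1129 and 142 and Dppa5a 2915 and 298, and 10 of the 12 were lower in replicate 2 by the test above (6 with TMM factors), against 45.7% of all genes on totals and 28.9% with TMM factors. Of 12 feeder fibroblast markers, 2 (Twist1 and Pdgfra) had at least 10 counts in each replicate, and the list summed to 8.98 and 6.66 CPM, with Lum at 0 in both and Col1a1 at 4 and 5 counts. Twist1 made up 4.68 and 4.69 CPM of this sum, and Thy1, with 32 and 2 counts, was the 1 feeder marker called, lower in replicate 2 (log2 ratio −3.47, adjusted p = 1.19e-06, exact binomial test). The part that base composition, the counts of other tailless RNAs or the stem cell markers have in the ratios of the clustered histone genes was not tested.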

How the data were processed

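Processed values of 2 messenger RNA libraries were used. RNA was isolated on oligo(dT) beads and sequenced with a stranded kit. For the deposited counts the authors ran featureCounts 1.5.2 (per the file headers), counting fragment pairs in reverse-stranded mode over transcript spans, introns included, of a non-redundant annotation on mm10. STAR 2.4.2a and Bowtie2 2.3.2 are named in the submitters' processing notes, but the alignment of these libraries is not given in the sources used here. Column names differ from the sample descriptions by a missing letter b, and the rest of the name was used to match them. The length column, deposited as a score in bases, equals the span. Total counts were 23716499 and 20275749.

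CPM and TPM were computed from the counts with the deposited span or with GENCODE M21 exons inside that span. GENCODE matched 98.2% of the genes and all 59 members. The replicates were compared by a two-sided exact binomial test against the ratio of totals with Benjamini-Hochberg adjustment at 0.05 over all genes with at least 10 counts, since with 1 group edgeR's quasi-likelihood test has no contrast. TMM factors came from edgeR 4.0.16 and size factors from DESeq2 1.42.0 (R 4.3.3). Log2 ratios had 0.5 counts added. A GC trend (polynomial of degree 3, other genes, 50 or more counts in both libraries) was an alternative expectation, where GC content was that of the longest GENCODE transcript, for the members limited to the counted span. The test was checked on simulated counts that vary by counting error alone, unlike these libraries, where 60.8% of all genes tested passed. That check does not show how the test performs here. Other alternatives changed count minimums, lengths and the replicates used.

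Members, gene lists and tests were chosen with earlier results of these data known. Named genes are the 4 members of each class with the highest mean CPM, the 3 with the highest and the 3 with the lowest ratio among those with at least 50 counts, the 4 with spans over 1000 bp, and genes of the lists. Hist1h1d, Hist3h2bb-ps, Hist4h4, the genes at 0 and genes of head-to-head pairs were named after their values were seen.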

Additional observations from a re-analysis of the deposited data

How the results depend on the processing

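Calls of 6 genes between the replicates became 3 when at least 10 counts were required in each replicate, which left 11 genes to test, while 7 to 9 passed with the other alternatives. The split of 6 lower and 0 higher became 4 and 5 with TMM or DESeq2 factors and 3 and 5 with the GC trend, so the split of the calls depends on the scaling. The median log2 ratio was negative with every alternative except when 50 counts were asked for in both libraries, where it was 0.27. Only Hist1h2bc and Hist1h2bp are in that set. It was −0.77 for the spans of at most 1000 bp, an alternative chosen after seeing the data.

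The 11 genes detected became 46 with 1 count in each replicate, 2 with 100 counts in each, and 12 to 18 in single replicates. The mean share of all counts was 0.00232% for spans of at most 1000 bp and 0.00337% to 0.00484% in single replicates. The median of 50.7 TPM with span lengths over the 11 genes became 16.2 with exonic lengths, 6.22 with no filter, 36.1 at 100 counts in each and 23.3 to 24.1 in single replicates. The last of these also changes with the replicate alone, since over the same 11 genes the median was 41.4 TPM in replicate 1 and lower in replicate 2. Of 41 alternatives to 13 results, 22 stayed close to the main value (within the spread of its replicates or its interval, or within 1.5 times for counts of genes), 18 moved and 1 reversed. No paired analysis was possible because there is only 1 group. With 2 replicates, no spread between cultures can be separated from library preparation, and depth limits what can be said of the 48 genes with under 10 counts in a replicate.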
